A study of Mus musculus with 23 samples.

Results

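The 9 genes described here belong to extracellular nucleotide and adenosine signalling and were measured in retinal microglia: the P2Y receptors P2ry6, P2ry13 and P2ry14, the ATP-gated channels P2rx4 and P2rx7, the adenosine receptors Adora1, Adora2a and Adora3, and the ectonucleotidase Entpd1. They were taken by name, and each was matched to a single row of the expression table by its gene identifier. All 9 were among the 35825 genes in the table and among the 17102 that passed the filter on low values, which asked for 10 or more normalized counts in 3 or more libraries. Adora2a passed with a normalized count of 10 or more in only 10 of 23 libraries.

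ATP leaking from damaged cells acts on P2X channels, which open to cations when ATP binds, and on G protein-coupled P2Y receptors, some of which prefer ADP, UDP or UDP-sugars. Enzymes on the cell surface then take the phosphates off: CD39, the product of Entpd1, converts ATP and ADP to AMP, and CD73, the product of Nt5e, converts AMP to adenosine, the ligand of the Adora receptors. Microglia use this system to sense injury, and the ADP receptor P2Y12 guides their processes towards it.

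RNA-seq had been performed on GFP+ cells sorted live from dissociated mouse retina. WT denotes CX3CR1-GFP mice, in which GFP replaces coding sequence of Cx3cr1 on the B6.129P2(Cg)-Cx3cr1tm1Litt allele and so marks macrophages and monocytes as well as microglia. KO denotes Spp1 KO; CX3CR1-GFP mice, which carried the same reporter, heterozygous in the study's cross, together with a germline deletion of Spp1 (B6.129S6(Cg)-Spp1tm1Blh), the gene of osteopontin, so that the deletion affects all cell types and not microglia alone. The 6 groups were WT naive (4 libraries), WT IOP (4), WT ONC (3), KO naive (4), KO IOP (4) and KO ONC (4). Naive retinas had no injury, IOP retinas were taken 4 weeks after intraocular pressure was raised with microbeads, and ONC retinas 7 days after optic nerve crush. Retinas of several mice of a genotype and condition were pooled before sorting, male and female mice were used equally, and the age was not stated beyond that mice were age-matched. Nothing in the labels ties libraries to separate pools, so the p-values below measure the spread between libraries.

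Each library held between 22180480 and 30296094 reads on genes. Several libraries stood apart. The 10 microglia markers (among them Csf1r, Itgam, Aif1, Tmem119 and Sall1) were all detected at 10 or more in every library, but together they took 1.09% to 1.84% of normalized counts in KO naive replicates 1, 2 and 4 and WT IOP replicates 1 and 4, against 2.32% to 3.36% in the other 18 libraries. The 10 rod photoreceptor markers took 2.36% to 3.46% in those 5 libraries and 0.488% to 1.8% in the others. Lens genes reached 0.112% to 0.859% in WT IOP and at most 0.0106% in any other library. Spp1 itself went against some labels: it was at 4750, 6811 and 6226 normalized counts in KO ONC replicates 1, 2 and 4 and at 15 in KO ONC replicate 3, where WT ONC libraries held 14557 to 22906. In KO IOP, replicates 2 and 4 held 810.7 and 761.3, and in KO naive, replicate 1 held 350.2, above the lowest WT naive library at 333.6. Cx3cr1, a locus shared by the reporter of both genotypes, was at 952.2 to 1233 in the 4 KO IOP libraries and at 26836 to 54612 in WT IOP. Whether these libraries differ in genotype, in the cells sorted or in both was not tested. Results that rest on the libraries low in microglia markers or on the 6 KO libraries with Spp1 are therefore given with and without them. Without those 5, KO naive is left with replicate 3 alone, and without those 6, KO ONC is left with replicate 3 alone. Comparisons with such a group rest on 1 library there, and its spread is taken from the other groups.

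Coordinates are those of GRCm38. P2rx7 (ENSMUSG00000029468.17, chr5:122643911-122691432, plus strand) and P2rx4 (ENSMUSG00000029470.15, chr5:122707544-122729738, plus strand) are neighbours with 16111 bases between them. P2ry14 (ENSMUSG00000036381.13, chr3:59113855-59153618), P2ry13 (ENSMUSG00000036362.2, chr3:59207892-59210882) and P2ry12 all lie on the minus strand inside Med12l, a gene on the plus strand, and only 5389 bases separate P2ry13 from P2ry12. Without strand information the reads of Med12l and of the receptors inside it could not be told apart where their exons overlap. Adora3 (ENSMUSG00000000562.5, chr3:105870858-105908926, plus strand) overlaps Tmigd3 on the same strand, so its level is uncertain to that extent. P2ry6 (ENSMUSG00000048779.5) is at chr7:100937630-100974649 on the minus strand, Adora1 (ENSMUSG00000042429.8) at chr1:134199223-134235431 on the minus strand, Adora2a (ENSMUSG00000020178.6) at chr10:75316877-75334784 on the plus strand and Entpd1 (ENSMUSG00000048120.16) at chr19:40612366-40741602 on the plus strand.

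The DNA just before the start of 3 of these genes is shown because P2rx4 and P2ry13 moved apart after nerve crush and because P2ry13 and Adora3 varied together between libraries. Each run is the 250 bases before a RefSeq start on GRCm38.p6, written 5′ to 3′ on the gene's own strand. Capitals mark GAGGAAGT, or ACTTCCTC on the other strand, the binding motif of the myeloid factor PU.1.
P2rx4, chr5:122707294-122707543, plus strand: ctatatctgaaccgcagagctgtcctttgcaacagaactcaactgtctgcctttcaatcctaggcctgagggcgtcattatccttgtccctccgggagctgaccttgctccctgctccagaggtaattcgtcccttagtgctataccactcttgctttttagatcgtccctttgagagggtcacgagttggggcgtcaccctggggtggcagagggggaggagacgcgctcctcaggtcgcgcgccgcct
P2ry13, chr3:59210883-59211132, minus strand: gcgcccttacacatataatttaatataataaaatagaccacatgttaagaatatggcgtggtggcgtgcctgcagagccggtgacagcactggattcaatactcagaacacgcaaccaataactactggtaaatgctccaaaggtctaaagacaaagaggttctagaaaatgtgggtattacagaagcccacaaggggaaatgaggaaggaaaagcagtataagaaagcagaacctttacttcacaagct
Adora3, chr3:105904171-105904420, plus strand: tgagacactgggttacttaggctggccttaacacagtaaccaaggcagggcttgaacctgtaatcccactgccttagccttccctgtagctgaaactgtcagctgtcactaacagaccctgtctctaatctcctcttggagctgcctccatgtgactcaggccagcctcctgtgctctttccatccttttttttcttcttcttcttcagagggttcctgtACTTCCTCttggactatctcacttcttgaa
The 13 windows of that length before starts of 7 of the 9 genes held 1 match, in Adora3, where it begins at position -30 from the start on the other strand. Of 32851 windows across all genes, 802 (2.44%) held the motif. The match is a run of letters and was not tested as a bound site, and the windows without it show only that these letters are not in them.

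Levels between genes were compared as normalized counts per kilobase of the longest coding transcript. In WT naive microglia P2ry13, an ADP receptor, was highest of the 9 at 13580 ± 2338 per kilobase (SD, n = 4). For comparison, P2ry12 was at 26639 ± 3912 per kilobase. P2ry6, the UDP receptor linked to phagocytosis, followed at 2246 ± 242.4 and Entpd1 at 2150 ± 234.2, which did not differ beyond their spread. P2rx4 was at 1149 ± 166 and P2rx7 at 933.7 ± 110.5, and these neighbours also lay within their spread of each other. Adora3 was at 351.7 ± 55.7, Adora1 at 244.3 ± 27.0 and P2ry14, a receptor for UDP-glucose, at 31.5 ± 16.7. Adora2a was at 2.92 ± 2.47 per kilobase, with no read in 6 of 23 libraries, at most 3 reads in 9 and 35 reads at most, so its changes were not measurable at this depth. A count of 3 reads corresponds to between 2.41 and 4.03 normalized counts, depending on the library.

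**Figure D1:**
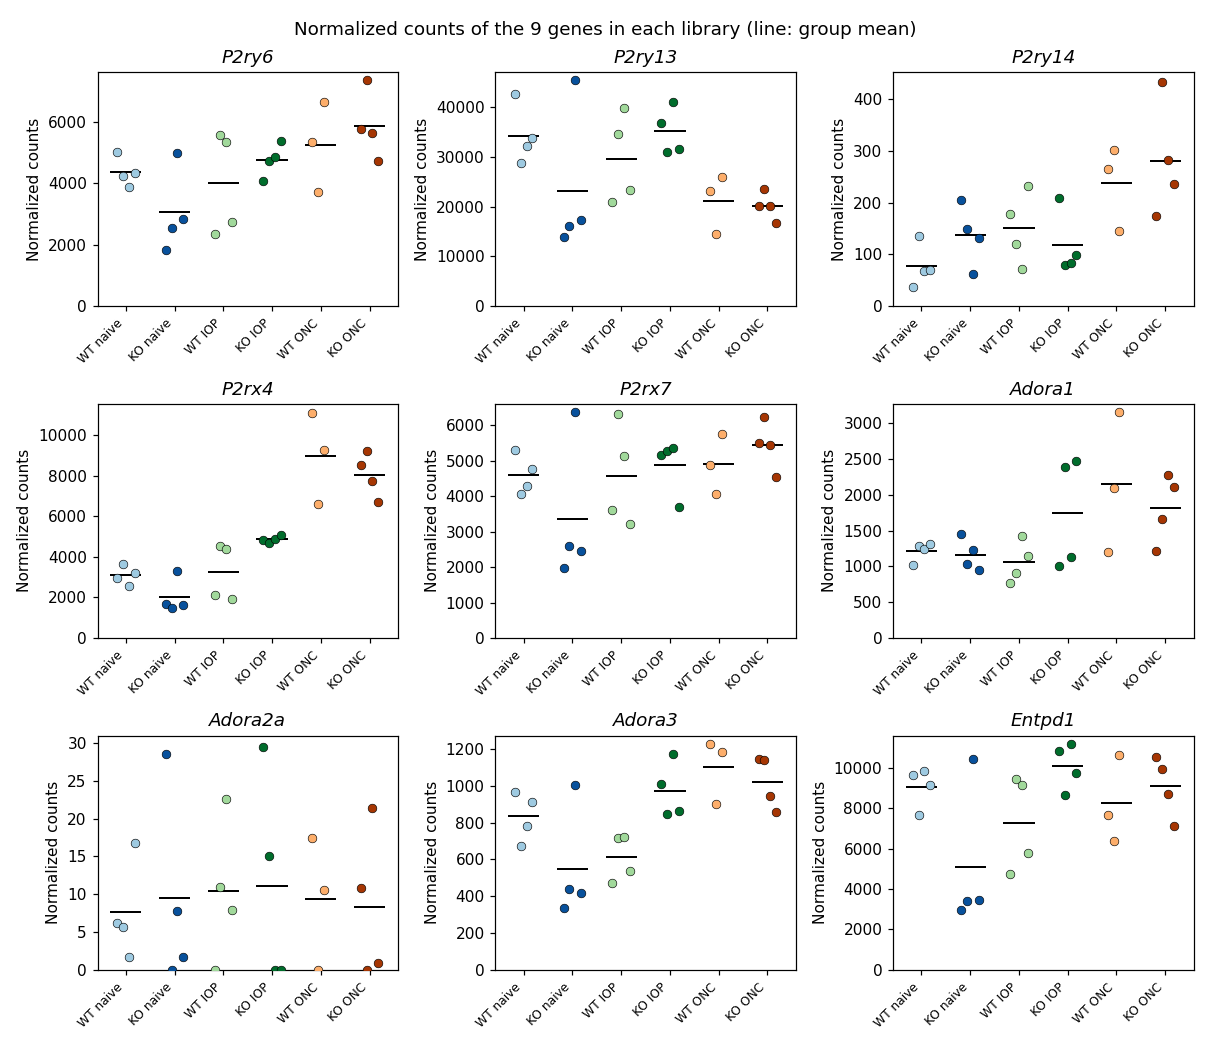
Normalized counts (vertical axes, linear and starting at 0) of the 9 genes in each of the 23 libraries, by group, with a line at each group mean. P2rx4 in the 7 ONC libraries (6632 to 11084) sits above all 8 naive libraries (1464 to 3648), whereas 6 of the genes show 3 low KO naive libraries and 1 high.

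Nerve crush was compared with naive retina in each genotype, with limma on log2(normalized count + 1). A gene was called where its Benjamini-Hochberg adjusted p, over all genes tested, was below 0.05 and its absolute log2 fold change above 0.58. P2rx4 rose in both genotypes. It encodes the P2X4 channel, known from spinal microglia for its increase after peripheral nerve injury. In WT naive libraries P2rx4 was at 2968, 3648, 2580 and 3228 normalized counts, and in WT ONC at 11084, 6632 and 9302. In KO naive it was at 1684, 1464, 3312 and 1651, and in KO ONC at 8556, 9215, 7739 and 6727. Every ONC library lay above every naive library in both genotypes, as for 12.1% of all genes in WT and 13.4% in KO. The log2 fold change was 1.52 ± 0.29 (SE) in WT, a fold of 2.86 with an adjusted p of 9.30e-04, and 2.06 ± 0.27 in KO, a fold of 4.17 with an adjusted p of 2.11e-05.

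A count of 2 of the 9 genes was called higher after crush in WT, where 7.55% of all genes tested were called higher. Beside P2rx4 the other was P2ry14, at 37.28, 135.6, 68.41 and 70.58 in WT naive and at 265.7, 302.6 and 145.1 in WT ONC. Those groups did not overlap, as for 12.1% of all genes in that direction, and the lowest ONC library was close to the highest naive library. P2ry14 had a log2 fold change of 1.67 ± 0.51 (adjusted p = 0.0262) in WT and of 1.07 ± 0.47 (adjusted p = 0.102) in KO, where libraries ranged from 62.97 to 204.9 in naive and from 173.6 to 432.9 after crush. The WT call did not remain without WT naive replicate 1 or 3 or WT ONC replicate 1 or 2, with adjusted p from 0.0532 to 0.106, nor with each library scaled to the microglia markers (adjusted p = 0.268), where the KO value turned to -0.31.

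In KO, 5 of the 9 genes were called higher after crush, beside 12.7% of all genes. They were P2rx4, P2ry6 (log2 fold change 1.03 ± 0.28), P2rx7, the channel that opens at high ATP and starts inflammasome signalling (0.85 ± 0.27), Adora3, a Gi-coupled adenosine receptor (1.02 ± 0.26), and Entpd1 (1.04 ± 0.30), with adjusted p of 0.0109, 0.0246, 0.00581 and 0.0143 for the last 4 in that order. In each of these 4 the KO naive libraries fell apart. Entpd1 was at 2977, 3433 and 3445 in KO naive replicates 1, 2 and 4 and at 10428 in replicate 3, while KO ONC libraries held 10554, 9956, 8720 and 7137. Replicate 3, the KO naive library with microglia markers at 3.18%, thus lay within the KO ONC range for Entpd1. Adora3 showed the same arrangement, at 338, 437.5 and 414.7 in those 3 libraries, 1004 in replicate 3 and 855.4 to 1144 after crush. In bulk samples, fewer microglia and less RNA per microglial cell cannot be told apart. Of the 10 microglia markers, 9 were themselves called higher in KO ONC against KO naive, with a median log2 fold change of 1.40, against 1 of 10 (Aif1) in WT, with a median of 0.25. The 8 markers of border macrophages and monocytes, which the reporter also labels, took 0.0677% to 0.146% of normalized counts in WT naive and 0.00662% to 0.0254% in WT ONC, and 0.0546% to 0.117% in KO naive and 0.0269% to 0.0948% in KO ONC. The part of these cells in the crush changes of the 9 genes was not tested.

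**Figure D2:**
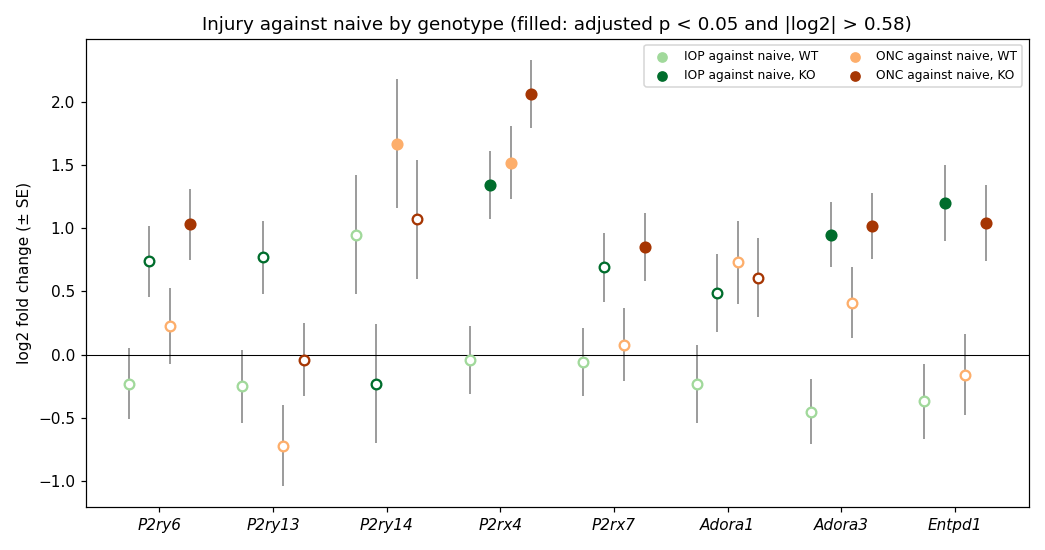
log2 fold change (± SE) of 8 of the genes for injury against naive in each genotype; Adora2a, at or near 0 in most libraries, is left out of the plot. Filled points passed both thresholds, and P2rx4 alone has filled points in 3 of the 4 comparisons.

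Across libraries, most of the genes moved with the microglia markers. Deviations from group means correlated with those of the marker mean (Pearson's r over 23 libraries that share cells and scaling, given as a description) at 0.971 for P2ry13, 0.929 for Adora3, 0.919 for Entpd1, 0.909 for P2rx7, 0.866 for P2ry6 and 0.830 for P2rx4. With the rod markers the same 6 genes gave r from -0.856 to -0.745. Adora1, a receptor that retinal neurons express too, gave -0.050 with the microglia markers and -0.041 with the rod markers. P2ry14 gave -0.574 and 0.518, opposite to the other P2Y receptors.

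**Figure D3:**
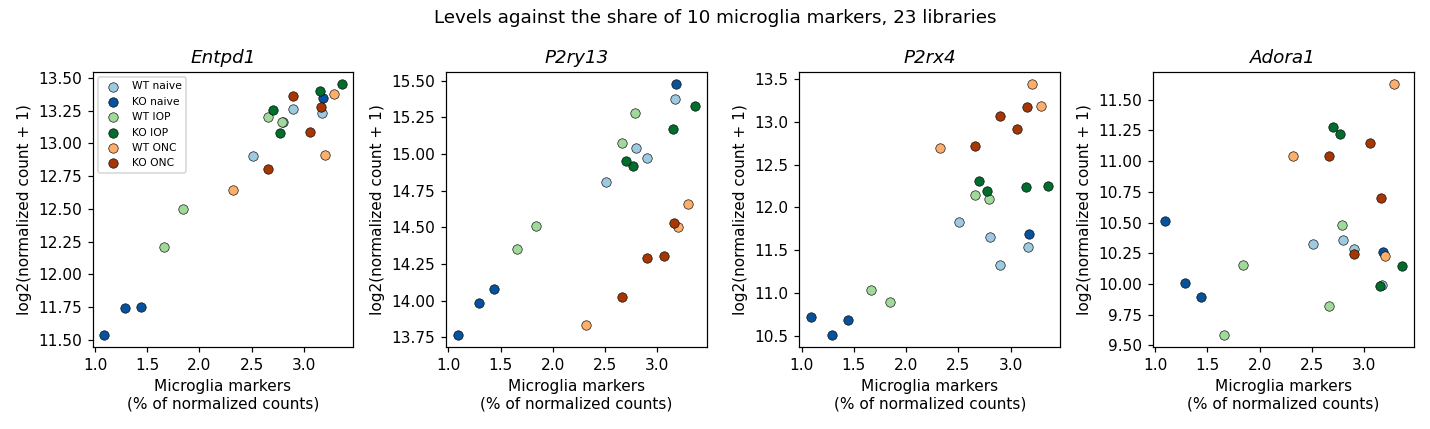
log2(normalized count + 1) of 4 genes against the share of normalized counts taken by 10 microglia markers, 1 point per library. Entpd1 rises with the marker share in all groups together, P2ry13 does so on a separate, lower line in the 7 ONC libraries, P2rx4 is highest in the ONC libraries at a given share, and Adora1 shows no such relation.

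The ONC comparison was therefore also made relative to the microglia markers, by scaling each library to the same mean log2 level of the 10 markers. P2rx4 was then called higher and P2ry13 lower. P2rx4 remained higher, with a log2 fold change of 1.13 ± 0.21 in WT (adjusted p = 0.00128) and 0.68 ± 0.19 in KO (adjusted p = 0.00512). P2ry13 was lower, by -1.10 ± 0.12 in WT (adjusted p = 3.51e-06) and -1.42 ± 0.11 in KO (adjusted p = 7.49e-08). These were the members called in that scaling, in which 9.06% of all genes were called in either direction in WT and 63.9% in KO, and in which the median of all genes shifted by -0.36 and -1.35. The calls in KO were nearly all lower, 10900 of 11124, and the median log2 fold change of all genes was -1.48 there, so the KO value of P2ry13 lay near that of the median gene. In WT that median was -0.46, and 369 genes were called higher and 1207 lower. P2ry12 in this scaling was at -1.14 ± 0.13 in WT and -0.92 ± 0.12 in KO (adjusted p of 4.74e-06 and 4.04e-05). Its KO value lay above that of the median gene. With the scaling as deposited P2ry12 was at -0.76 ± 0.33 in WT and 0.46 ± 0.31 in KO (adjusted p of 0.11 and 0.28), and neither was called.

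With the scaling as deposited P2ry13 was at 42623, 28745, 32200 and 33751 in WT naive and at 23255, 14606 and 25899 in WT ONC. The WT groups did not overlap, as for 14.3% of all genes in that direction. The log2 fold change of -0.72 ± 0.32 was not called (adjusted p = 0.114). In KO, 3 naive libraries held 13950, 16175 and 17335 and the other 45582, against 20081, 23668, 20199 and 16683 after crush, and the log2 fold change was -0.04 ± 0.29 (adjusted p = 0.938). None of the 5 libraries low in microglia markers is in WT naive or WT ONC, so without them the WT value of P2ry13 stayed at -0.72. Its SE went from 0.32 to 0.20 through the spread shared with the other groups, and it was then called. In KO, with naive replicate 3 then alone in its group, P2ry13 stood at -1.19. With the marker mean as a covariate it was at -1.09 in WT and -1.40 in KO, both called. Over all alternatives the adjusted p of P2ry13 ran from 3.07e-07 to 0.313 in WT and from 7.49e-08 to 1 in KO.

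In KO without the 5 libraries, a fit with KO naive replicate 3 alone in its group, P2rx4 had a log2 fold change of 1.27. With the markers scaled, P2ry6, P2rx7, Adora3 and Entpd1 changed sign in KO, to -0.35, -0.53, -0.35 and -0.34, and none was called: P2rx7 had an adjusted p of 0.00874 but stayed under the fold threshold. Without the 6 KO libraries that carried Spp1, a fit with KO ONC replicate 3 alone in its group, assumed to vary as the other groups did, P2rx4 kept a log2 fold change of 1.95 in KO but was not called (adjusted p = 0.0726). In WT it was called in all alternatives run, with adjusted p from 1.37e-05 to 0.0111, and in KO the adjusted p ran from 2.50e-10 to 0.0726.

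**Figure D4:**
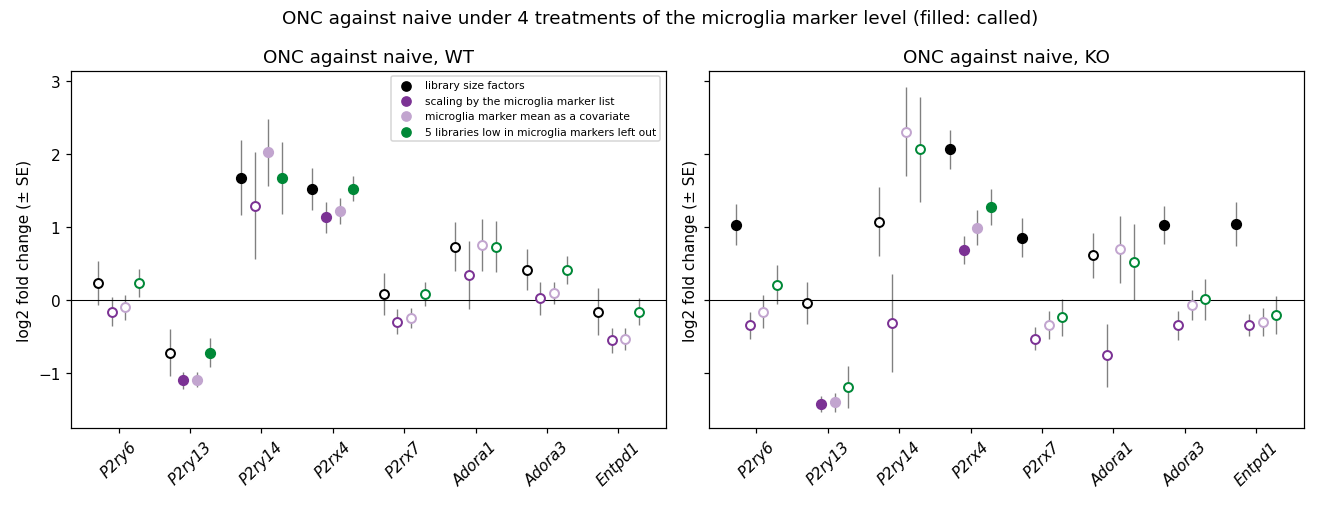
log2 fold change (± SE) of ONC against naive in WT (left) and KO (right) for 8 genes with the deposited scaling, with scaling to the microglia markers, with the marker mean as a covariate and without the 5 libraries low in markers. Filled points were called. Without the 5 libraries KO naive was 1 library alone. P2rx4 is filled under all 4 treatments in both genotypes, and P2ry6, P2rx7, Adora3 and Entpd1 lie above 0 and filled in KO only with the deposited scaling.

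A ratio of 2 genes within a library does not depend on how libraries are scaled. P2ry13 over P2rx4 was chosen for this after its values were seen and is given as a description. It was 14.4, 7.88, 12.5 and 10.5 in WT naive and 2.1, 2.2 and 2.78 in WT ONC. In KO naive it was 8.28, 11, 13.8 and 10.5, including the 3 libraries low in microglia markers, and in KO ONC 2.35 to 2.61. The ratio thus separated all 7 crush libraries from the other 16, whichever genotype they came from. In IOP retinas it was 7.65 to 12.2 in WT and 6.23 to 8.44 in KO. The KO ONC library without Spp1 was at 2.61 and the others at 2.35 to 2.57.

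**Figure D5:**
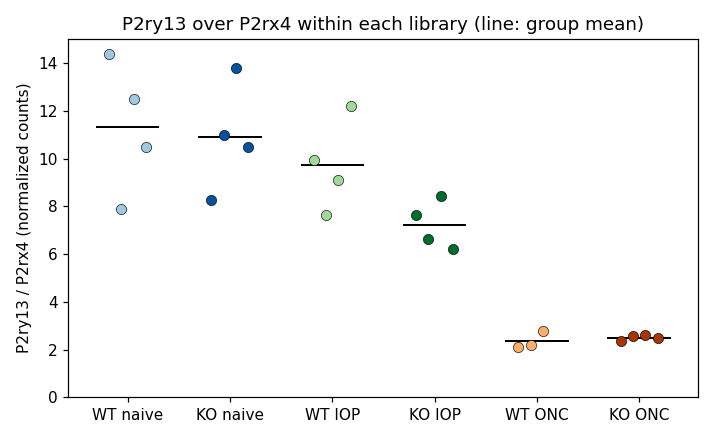
P2ry13 over P2rx4, as a ratio of normalized counts (vertical axis, linear from 0), in each of 23 libraries with a line at the group mean. The 7 ONC libraries lie between 2.1 and 2.78, and the other 16 between 6.23 and 14.4.

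Elevated IOP was compared with naive in the same way. In WT, 0 of the 9 genes were called, with all libraries or without the 5 or the 6, with 0 at an unadjusted p below 0.05, where 1.56% of all genes were called in either direction by limma. edgeR and DESeq2 on the recovered reads also called 0. P2rx4 was at 2103, 4525, 4388 and 1912 in WT IOP, around the WT naive values, with a log2 fold change of -0.04 ± 0.27. The lower pair were the WT IOP libraries low in microglia markers, and without the 5 libraries P2rx4 stood at 0.53 ± 0.19 (adjusted p = 0.443), and the value was not called. The lowest adjusted p was that of P2ry14, at 0.392. In KO, 3 genes were called higher, beside 5.06% of all genes: P2rx4 (1.34 ± 0.27, adjusted p = 0.0108), Adora3 (0.95 ± 0.26, adjusted p = 0.0315) and Entpd1 (1.20 ± 0.30, adjusted p = 0.0239). P2rx4 was at 4836, 4666, 4871 and 5087 in KO IOP, all above the KO naive libraries, as for 5.43% of all genes. Of the 10 microglia markers, 6 rose in the same comparison, with a median log2 fold change of 1.10. No member was called with the microglia or rod markers as a covariate or with scaling to the markers. Nor was any called without the 6 KO libraries with Spp1, where P2rx4 had a log2 fold change of 1.28 (adjusted p = 0.207). Without the 5 libraries, with KO naive replicate 3 alone in its group, P2rx4 had a log2 fold change of 0.55.

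The difference between the genotypes in the response to IOP was tested as an interaction. P2rx4 (1.39 ± 0.38), Adora3 (1.40 ± 0.36) and Entpd1 (1.57 ± 0.42) were called, with adjusted p of 0.0272, 0.0218 and 0.0261, beside 4.85% of all genes called higher. P2ry12 had a value of 1.59 ± 0.43 (adjusted p = 0.0272), and 6 of the 10 microglia markers were called in the same direction. The counts fell to 0 with either marker covariate and without the 6 KO libraries with Spp1. Without the 5 libraries, with KO naive replicate 3 alone in its group, P2rx4, Adora3 and Entpd1 were at 0.02, 0.13 and -0.09. The interaction of genotype and ONC called 0 of the 9, beside 0.0702% of all genes, with 1 at an unadjusted p below 0.05.

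Direct comparison of KO with WT called 0 of the 9 genes in naive retina, after IOP and after ONC, where limma called 0.409%, 2.11% and 0.0877% of all genes in either direction. At an unadjusted p below 0.05 there were 6, 3 and 0 of the 9, and edgeR and DESeq2 called 0 in each. In naive retina 8 of 9 values were below 0, the lowest being Entpd1 at -1.04 ± 0.30 (adjusted p = 0.0895). Without KO naive replicate 3, which left only KO naive libraries low in microglia markers, Entpd1 stood at -1.46 (adjusted p = 3.46e-04). Without the 5 libraries, which left replicate 3 alone in KO naive, Entpd1 stood at 0.21. No member was called in KO against WT after IOP or ONC without the 5 or the 6 libraries. After IOP, P2rx4 and Adora3 were higher in KO with no overlap between genotypes, as were 5.11% of all genes. Adora3 was at 473.6, 718.2, 723.3 and 535.3 in WT IOP and at 1007, 843.8, 1170 and 860.3 in KO IOP. Their log2 fold changes of 0.70 ± 0.27 and 0.67 ± 0.26 had an adjusted p of 0.148 each. They were 0.13 and 0.42 without the 5 libraries and 0.14 and 0.11 with scaling to the microglia markers. After ONC the 9 values ran from -0.33 to 0.23, and P2rx4 was at -0.14 ± 0.29.

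The remaining genes of the pathway were counted by role. Among 7 other ecto-enzymes tested, 1 was called higher and 2 lower after crush in each genotype, where 7.55% of all genes were called higher and 10.5% lower in WT and 12.7% and 11% in KO. All 3 WT calls held without the 5 or the 6 libraries. Neither set includes a WT naive or WT ONC library, so the WT values stayed the same and only the shared spread changed. Enpp1, which cleaves ATP to AMP and pyrophosphate, rose by a log2 fold change of 1.58 ± 0.39 in WT and 2.42 ± 0.36 in KO, from means of 536.2 and 288.7 to 1737 and 1499 normalized counts. Nt5e, the gene of CD73, fell, with log2 fold changes of -1.68 ± 0.39 in WT and -1.79 ± 0.37 in KO, from means of 1529 and 1903 to 608.8 and 535.5. WT ONC replicates differed widely for Nt5e, from 263.1 to 1250. Entpd3 fell in WT (-2.96 ± 0.50, adjusted p = 3.12e-04) and Alpl, the tissue-nonspecific alkaline phosphatase, fell in KO (-1.33 ± 0.27, adjusted p = 0.00123). In KO without the 5 libraries, with naive replicate 3 alone, Enpp1 was at 1.91, Nt5e at -1.01 and Alpl at -0.69. Without the 6, with ONC replicate 3 alone, they were at 2.85, -1.64 and -1.18. Amacrine and bipolar cell markers were also lower after crush, at 0.0211% to 0.0867% of normalized counts in WT ONC against 0.152% to 0.162% in WT naive. Rod markers had a median of 0.584% in WT ONC (0.488% to 1.8%) against 1.58% in WT naive (1.39% to 1.71%). In KO the rod median was 0.803% in ONC against 3.04% in naive. The part of amacrine, bipolar and rod cells in the falls of Nt5e, Entpd3 and Alpl was not tested.

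Among 10 other receptors tested, 0 were called after crush in WT and 2 were called higher in KO, a share not far from the 12.7% of all genes, namely P2rx1 (0.78 ± 0.27) and the ATP and UTP receptor P2ry2 (1.40 ± 0.47). Among 13 genes of adenosine handling, intracellular hydrolysis and ATP release, 0 were called in WT and 3 were called higher in KO, beside the same shares of all genes. The 3 were Slc29a3, a lysosomal nucleoside transporter, Kcnk13, the potassium channel THIK-1 of microglia, and Pnp, purine nucleoside phosphorylase. In KO naive these 3 also had a single high library, for example Slc29a3 with a median of 6744 and a highest value of 19282, and 9 of the 10 microglia markers rose in the same comparison. Without the 5 libraries, with KO naive replicate 3 alone in its group, the values of these 5 genes ran from -0.12 to 0.08. Without the 6, with KO ONC replicate 3 alone, they ran from 0.75 to 1.59. After IOP, Entpd3 was the only call in WT (-2.12 ± 0.47, adjusted p = 0.0203), and in KO Kcnk13 and Pnp were called higher and Alpl lower. Amacrine and bipolar cell markers took 0.0733% to 0.106% of normalized counts in WT IOP against 0.152% to 0.162% in WT naive. Their part in the WT value of Entpd3 was not tested. Interaction terms of genotype and IOP were called for Entpd3 (2.70 ± 0.66), Alpl (-1.64 ± 0.38) and Pnp (1.22 ± 0.34). Without the 6 libraries none of these calls after IOP or in the interaction held. All values kept their sign there, with Entpd3 at -2.12 in WT and 3.06 in the interaction. Without the 5, Entpd3 was at -2.27 in WT, which was not called. With KO naive replicate 3 then alone, the interaction terms were 2.86 for Entpd3, -0.80 for Alpl and 0.21 for Pnp. In KO after IOP, Kcnk13 and Pnp were then at 0.15 and 0.09 and Alpl at -0.47. The median log2 change of the 9 members after crush was 0.23 in WT and 1.02 in KO, beside -0.10 and -0.12 over all genes. Over the 10 microglia markers it was 0.25 and 1.40.

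Each member was also matched to the protein-coding gene, outside the purinergic lists, with the most similar pattern of log2 values over the 23 libraries. For P2rx4 it was Cxcl16, a membrane-bound chemokine (Pearson's r = 0.979, and 0.930 for deviations from group means). Adora3 was most like Irf5 (r = 0.971), Entpd1 most like Tnfrsf1b, the gene of TNF receptor 2 (r = 0.971), and P2ry6 most like Ptafr, the receptor of platelet-activating factor (r = 0.952). P2rx7 paired with Tmem144 (r = 0.952) and P2ry13 with Abca9 (r = 0.931). The last 5 pairs gave r of 0.939 to 0.953 for deviations from group means. P2ry14 was nearest to the chemokine gene Cxcl13 (r = 0.796, and 0.603 for deviations), Adora1 to Arid5a (0.729 and 0.484) and Adora2a to Suox (0.702 and 0.760). Among the members, P2ry13 and Adora3 deviated together most closely (r = 0.96), followed by P2ry13 and Entpd1 (r = 0.95).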

How the data were processed

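Retinal microglia sorted as live, singlet GFP+ cells were profiled by paired-end RNA-seq after a SMARTER library kit. The methods name salmon and GRCm38, and the submitters' processing notes name STAR, DESeq2 and GRCm38. The deposited unit is a normalized count per gene (a signal, that is a read count divided by a library size factor), made by the authors in one table for 23 libraries. It was checked that dividing by the value of 1 read gave whole reads within 0.05 for 100% of values in every library.

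The members and gene lists were chosen with earlier results of these data known. Gene identifiers were matched to GENCODE M21 (34732 of 35825). The main test was limma 3.58.1 (R 4.3.3), with moderated variance and a mean-variance trend, on log2(normalized count + 1) of 17102 genes with at least 10 normalized counts in at least 3 libraries, fitted to all 23 libraries with 6 group means and 9 contrasts, 2 of them interactions of genotype and injury. Fold changes on this scale understate those of low genes. Calls needed a Benjamini-Hochberg adjusted p below 0.05 over all genes tested and an absolute log2 fold change above 0.58. edgeR 4.0.16 (quasi-likelihood) and DESeq2 1.42.0 were run on the recovered reads as alternatives, with pseudocounts of 0.5 and 5, other filters (none, or a mean of at least 50) and scalings, marker covariates, the compared groups alone, a replicate block and each library left out. Scaling by microglia markers, leaving out the 5 libraries low in them and leaving out the 6 KO libraries with Spp1 were added after the data were seen.

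Reads on genes per library had a median of 26914869. No pair of replicates was identical (lowest correlation 0.876). Replicate numbers did not pair the libraries: over 55 pairings the correlation of deviations ran from -0.253 to 0.23 and was over 0.1 in 10. Named genes were all members, P2ry12 as a reference, the called genes of the other purinergic lists and the most similar gene of each member. The scripts were tested on simulated data. Some items, among them a gene of the marker lists, are not reported here by name.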

Additional observations from a re-analysis of the deposited data

Results flagged for a closer look

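Of 45 combinations of a member and a group of 4 libraries examined for a single far library, 2 stood out, where chance gives about 1 in 20. P2rx7 was at 3710 in KO IOP replicate 4, with the other 3 libraries between 5152 and 5354. Entpd1 was at 10428 in KO naive replicate 3, with the other 3 between 2977 and 3445, and that library also held the highest microglia marker share of its group, 3.18% against 1.09% to 1.44%.

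The response to IOP differed between the genotypes, by the interaction term of the limma fit, for P2rx4 (1.39, adjusted p = 0.0272), Adora3 (1.40, adjusted p = 0.0218) and Entpd1 (1.57, adjusted p = 0.0261). The comparison includes KO naive replicates 1, 2 and 4 and WT IOP replicates 1 and 4, the libraries low in microglia markers. Without those 5 libraries, with KO naive replicate 3 alone in its group, the 3 values were 0.02, 0.13 and -0.09.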

How the results depend on the processing

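Of 682 alternative values, 453 were values of single genes, and 332 of these kept their direction and side of the threshold. The rest were counts of members called, taken as the same when close to the main count. Over both kinds 520 were the same. Without the 5 libraries KO naive holds replicate 3 alone, and without the 6 KO ONC holds replicate 3 alone. Counts for comparisons with those groups then rest on 1 library there. In KO ONC against naive, 5 members were called higher, 3 with the compared groups alone or edgeR, and 2 to 5 leaving out single libraries. With either marker covariate or scaling by microglia markers 2 members were called, and of the 5 only P2rx4 was among them. The other with the microglia covariate or the scaling was P2ry13, called lower. In KO IOP against naive, 3 were called, 1 with edgeR, 0 with the compared groups alone, either covariate, marker scaling, without the 5 or without the 6 libraries, and 0 to 6 leaving out single libraries. In the interaction with IOP, 3 were called, 1 with edgeR, 0 with either covariate, without the 5 or without the 6, and 0 to 6 leaving out single libraries. In WT ONC against naive, 2 were called, 1 with the compared groups alone, 1 to 2 leaving out single libraries, and 3 with quantile normalization, either covariate or without the 5 libraries, where P2ry13 was called lower as well. None of the 5 is a WT naive or WT ONC library, so without them the WT value of P2ry13 was unchanged and only the shared spread differed. Marker scaling called P2rx4 and P2ry13 in the same comparison. In KO against WT, naive, 1 was called with marker scaling (P2ry14), where 31% of all genes were called higher, and 0 to 6 leaving out single libraries. In the interaction with ONC, leaving out single libraries gave 0 to 2. The counts of 6 and the 2 in the interaction with ONC came without KO naive replicate 3, which left only KO naive libraries low in microglia markers. No share of all genes stands beside those counts. The lowest counts in the KO comparisons and the interaction with IOP came without KO naive replicate 1, 2 or 4, KO IOP replicate 3, or WT IOP replicate 1 or 4.

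Values that changed sign in KO ONC against naive were, with the microglia covariate, P2ry6 at -0.16, P2rx7 at -0.34, Adora3 at -0.07 and Entpd1 at -0.30. With marker scaling they were -0.35, -0.53, -0.35 and -0.34. Without the 5 libraries P2rx7 was at -0.24 and Entpd1 at -0.21. P2ry13 there ranged from -0.22 to 0.34 leaving out single libraries. In KO IOP against naive, Adora3 was at -0.20 with marker scaling and -0.06 without the 5 libraries, and Entpd1 at -0.05 without them. In the interaction with IOP, P2rx4 was at -0.18 and Adora3 at -0.16 with marker scaling, and Entpd1 at -0.09 without the 5. P2rx7 (-0.82) and P2ry14 (-2.74) were called lower there with marker scaling, as were 48.3% of all genes. The median of all genes was then -1.62, so P2rx7 lay above the median gene. Entpd1 in KO against WT, naive, was at 0.21 without the 5. Marker scaling shifted the median of all genes by up to -1.55, in the interaction with IOP. The cause was not tested.

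With the replicate block the counts stayed at 5 in KO ONC, 3 in KO IOP, 3 in the interaction with IOP, 2 in WT ONC and 0 in the other 5 comparisons, so it changed no count. Depth limits P2ry14 and, most of all, Adora2a.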

Other observations

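P2ry13 and P2ry12, whose genes lie side by side, did not keep a fixed ratio. P2ry13 over P2ry12 was 0.477 to 0.655 in WT naive libraries, 0.742 to 0.869 in KO naive, 0.671 to 0.792 in WT IOP, 0.625 to 0.789 in KO IOP, 0.488 to 0.64 in WT ONC and 0.549 to 0.596 in KO ONC. KO naive libraries, including replicate 3 with its full share of microglia markers, thus lay above WT naive libraries, and the crush libraries of the 2 genotypes overlapped. P2ry13 over P2ry6 was 6.08 to 9.12 across the 8 naive libraries and 3.22 to 4.36 across the 7 crush libraries. A lower ratio need not be a fall of P2ry13. In KO with the deposited scaling, P2ry6 and P2rx4 had log2 fold changes of 1.03 and 2.06 after crush, and P2ry13 had -0.04. These ratios were chosen after their values were seen and were not tested.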
